A study of Gallus gallus with 24 samples.

Results

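The papilla ectoderm, the epithelium that covers the papilla at the base of the feather follicle, was compared with the dermal papilla, the mesenchyme beneath it, by RNA sequencing of adult chicken sickle feathers. The comparison uses 8 of the 24 libraries of the series: 4 of papilla ectoderm and 4 of dermal papilla, chosen by the tissue given in the labels. Sickle feathers are tail feathers that in cocks grow long and curved. Each tissue was sampled once from each of 2 males and 2 females, so that every bird gave both tissues and serves as its own control. The birds carry the numbers 53 and 68 (male 1 and male 2) and 52 and 120 (female 1 and female 2). The birds received no treatment that the labels name, and their breed and exact age are not given there. The other 16 libraries come from the same birds and hold the collar epithelium (a ring of epithelium above the papilla that makes the feather), the pulp (the vascular mesenchyme inside the growing feather) and the lower and upper follicle sheaths (the wall around the feather base).

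A feather follicle is renewed by exchange between its epithelium and its mesenchyme. The dermal papilla persists from one feather cycle to the next and signals to the epithelium around it. The papilla ectoderm lies directly on it and continues upwards into the collar, where the cells of the new feather are made, while the mesenchyme continues upwards as the pulp.

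The files give genes by Ensembl identifier without names, and 0 of the 17108 identifiers were found in the reference table used here. Genes are therefore given by identifier, and gene functions and the marker genes of the labelled tissues are not described. The papilla ectoderm libraries held 12514383 to 31404619 counts and the dermal papilla libraries 23647152 to 27466651. Levels are given as CPM, which puts every library on one scale, and are compared between libraries for one gene, not between genes. In bulk tissue, fewer cells of a type and less RNA per cell cannot be told apart.

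Papilla ectoderm and dermal papilla differed in a large part of the transcriptome, by similar numbers of genes in both directions. Of 12751 genes tested with edgeR's quasi-likelihood test with the bird as a block, 2806 passed an adjusted p of 0.05 (22%). The papilla ectoderm was higher for 1334 of them (10.5%) and the dermal papilla for 1472 (11.5%); with upper-quartile scaling the balance turned, to 1618 and 1295. The within-bird difference had the same sign in 4 of 4 birds for all 1334 and all 1472 of these genes, against 6577 of the 12751 genes tested. The test uses these same within-bird differences, so a call favours an equal sign and the counts are a description. The median log2 difference, papilla ectoderm minus dermal papilla, was 1.44 among the genes higher in papilla ectoderm, -1.52 among those higher in dermal papilla and -0.04 over all genes tested.

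The count of calls depended on which birds were left in. Without male 2, and again without female 2, 0 genes passed edgeR's test, with 3626 and 3176 genes at an unadjusted p under 0.05. Without male 1 the count was 3150, and without female 1 it was 2512. Without the pairs of both male 1 and female 1 it was 3791, against 2806 with all birds. That fit keeps only male 2 and female 2, as few birds as males alone or females alone, which each gave 0 calls. Fits with birds left out have fewer residual degrees of freedom, so these counts are not on one footing. The cause of the differences in count was not tested. By DESeq2 4754 genes passed, and 5664 passed when all 24 libraries shared the estimate of the spread.

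**Figure D1:**
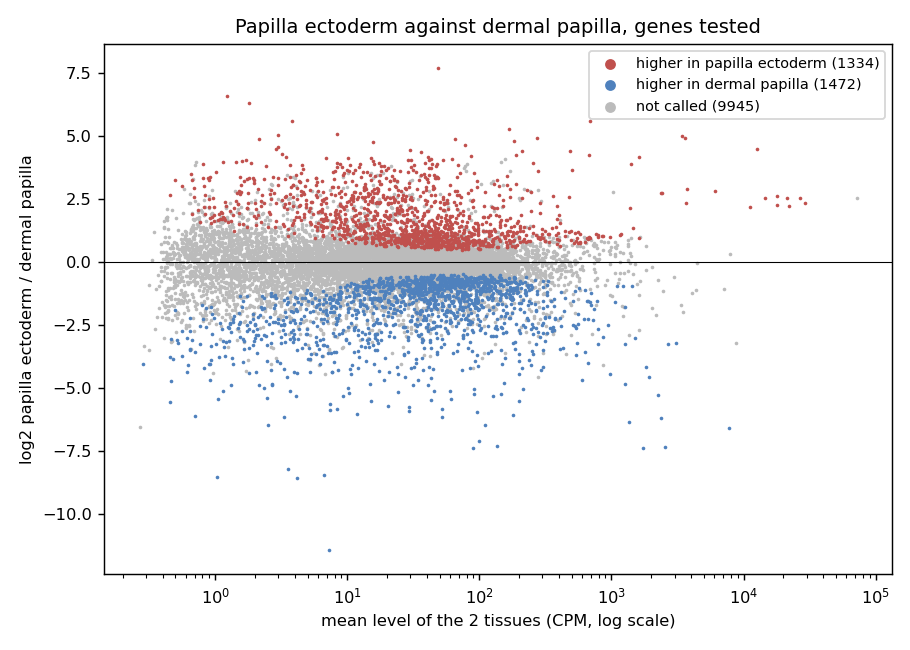
Each point is 1 of the genes tested, with the mean of the 2 tissue means in CPM on a log axis against the log2 ratio of papilla ectoderm to dermal papilla from edgeR. Red points (1334) passed the test as higher in papilla ectoderm, blue points (1472) as higher in dermal papilla, and grey points (9945) did not pass; the lower edge of the cloud reaches farther from 0 than the upper edge.

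Large differences were more often on the side of the dermal papilla. At least 8-fold differences were called for 177 genes higher in papilla ectoderm (1.39% of genes tested) and for 252 higher in dermal papilla (1.98%). At least 32-fold differences were called for 9 and for 49 genes. All 4 papilla ectoderm libraries lay above all 4 dermal papilla libraries for 1944 of the genes tested (15.2%), and below them for 2289 (18%). Abundance bore on the number of calls: when the genes were split by mean level into 4 groups of equal size, 28.5% of the highest group were called, against 15.3% of the lowest.

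The genes with the largest folds were taken from the called genes whose libraries did not overlap between the tissues and whose mean in the higher tissue was at least 10 CPM, and only the first 2 in each direction are identified.

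ENSGALG00000026297.1 had 92.0 CPM in the papilla ectoderm of male 1, 91.0 in female 1, 42.4 in male 2 and 161 in female 2, against 0.448, 0.699, 0 and 1.02 CPM in the dermal papilla of the same birds in that order. The lowest papilla ectoderm library was thus far above the highest dermal papilla library. The log2 difference was 7.68 ± 0.60 (SE, 4 birds, edgeR adjusted p = 0.00927). Outside these tissues the gene stayed low, with means of 3.54 ± 4.61 CPM in the upper sheath, 0.677 ± 0.905 in the lower sheath, 0.509 ± 0.218 in the pulp and 0.248 ± 0.186 in the collar (SD, n = 4 each). The papilla ectoderm was thus above all other tissues in every library, and the collar, the other epithelium sampled, had the lowest mean, though its libraries overlapped those of the lower sheath, the pulp and the dermal papilla.

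ENSGALG00000001197.4 had 2562 CPM in the papilla ectoderm of male 1, 566 in female 1, 956 in male 2 and 1309 in female 2. The dermal papilla of these birds had 27.5, 30.2, 22.7 and 17.8 CPM. The papilla ectoderm libraries differed among themselves by several-fold, with male 1 highest and female 1 lowest, while the dermal papilla libraries lay close together. The log2 difference was 5.61 ± 0.50 (SE, 4 birds, edgeR adjusted p = 0.00927). This gene was also present in the upper sheath, at 329 ± 68.3 CPM, and in the collar, at 90.7 ± 37.6 CPM, and was at 34.1 ± 8.38 in the lower sheath and 10.3 ± 8.40 in the pulp (SD, n = 4 each). Collar exceeded pulp by a log2 difference of 3.46 ± 0.51 (SE, edgeR adjusted p = 0.00121), the same direction as papilla ectoderm against dermal papilla.

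ENSGALG00000011973.4 had 0 counts in all 4 papilla ectoderm libraries and 17.4, 6.29, 27.4 and 6.63 CPM in the dermal papilla of male 1, female 1, male 2 and female 2. Both males were above both females in the dermal papilla, and likewise in the lower and in the upper sheath. Summed over the libraries there were 0 counts in papilla ectoderm and 1520 in dermal papilla, which makes the gene at least 318-fold lower in papilla ectoderm, computed from 3 counts over the group (edgeR adjusted p = 0.0168). It was shared with the sheaths, at 33.5 ± 22.6 CPM in the lower and 7.56 ± 3.68 in the upper sheath, and was nearly absent from the pulp (0.0996 ± 0.0431) and the collar (0.0354 ± 0.0253; SD, n = 4 each). The order of the levels was lower sheath, dermal papilla, upper sheath, pulp, collar and papilla ectoderm, and the dermal papilla libraries overlapped those of both sheaths.

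ENSGALG00000006575.3 had 0 CPM in the papilla ectoderm of 3 birds and 0.159 in female 1, against 15.6, 8.69, 11.1 and 18.1 CPM in the dermal papilla of male 1, female 1, male 2 and female 2. The counts were 2 in papilla ectoderm and 1407 in dermal papilla, a ratio in favour of the dermal papilla of 441 (95% interval 122 to 3645, counting error only; edgeR adjusted p = 0.0103). Both of the papilla ectoderm counts were in female 1. The other tissues held 3.92 ± 2.47 CPM (lower sheath), 2.65 ± 2.68 (pulp), 2.05 ± 0.68 (upper sheath) and 0.569 ± 0.382 (collar; SD, n = 4 each), so that the dermal papilla was the highest of the 6 tissues.

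**Figure D2:**
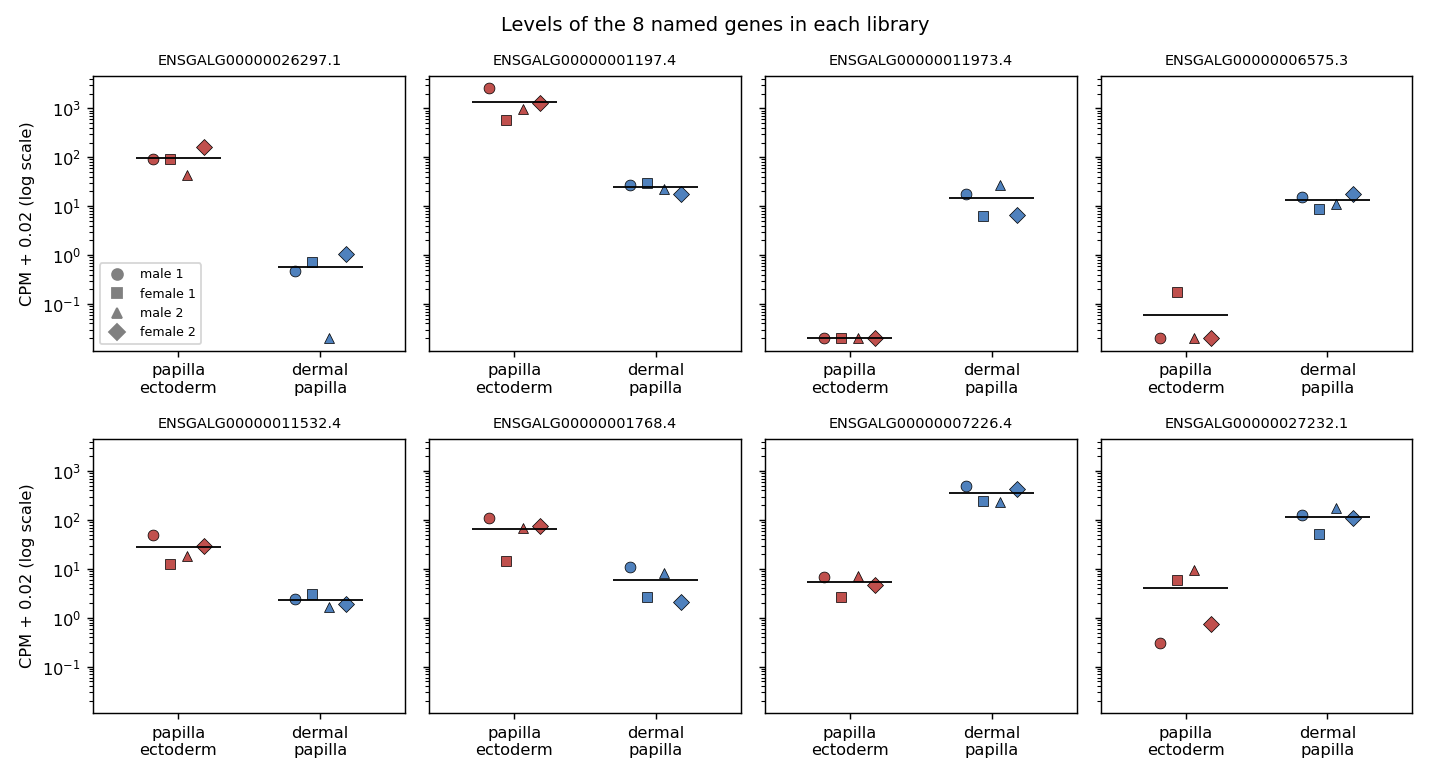
Each panel is 1 gene, with the level of every library in CPM plus 0.02 on a log axis, papilla ectoderm in red on the left and dermal papilla in blue on the right. Symbols mark the birds and horizontal lines the means; in all 8 panels the 2 tissues do not overlap, and the points at the bottom of the top row are libraries with 0 counts.

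Of the genes higher in papilla ectoderm, 143 were above all 20 libraries of the other 5 tissues in every papilla ectoderm library. Of those higher in dermal papilla, 192 were above the other 20 libraries in every dermal papilla library. The papilla ectoderm had the highest mean of the 6 tissues for 684 of its 1334 genes, and the dermal papilla for 744 of its 1472. The rest of the genes of each side were higher still in another part of the follicle. Each set was selected as higher in its tissue than in the partner tissue, which raises these counts. The shares over all genes tested were not computed, so the counts are a description.

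A much larger part of the counts of the papilla ectoderm fell on few genes. Its 10 most abundant genes in each library took 38.4% of the counts in male 1, 25.5% in female 1, 42.7% in male 2 and 30.9% in female 2. The top 10 of the dermal papilla libraries took 10.2%, 9.45%, 11.2% and 11.5%. The papilla ectoderm was above the dermal papilla in every bird, by 23.8 ± 7.27 percentage points (SD, 4 birds). The exact sign-flip test over birds gave p = 0.125, two-sided, the smallest value that 4 birds allow.

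When the 10 genes with the highest mean share over the 4 papilla ectoderm libraries were followed, 9 of them passed the test as higher in papilla ectoderm and 0 as lower, against 10.5% higher over all genes tested. Of the 10 genes with the highest mean share in dermal papilla, 4 passed as higher in papilla ectoderm and 1 as higher in dermal papilla, and 5 genes stood in both lists. The genes were chosen for their abundance in the same libraries, so these counts are a description. The log2 differences of the 10 papilla ectoderm genes ran from 2.20 to 4.49, and the edgeR adjusted p from 0.0275 to 0.0683. In 9 of these 10, female 1 was the lowest papilla ectoderm library. These 9 together took 36.6% of the counts in the papilla ectoderm of male 1, 15.6% in female 1, 42.1% in male 2 and 30.2% in female 2, against 6.39%, 6.30%, 7.35% and 7.08% in the dermal papilla. Their identifiers lie close together, from ENSGALG00000018360.1 to ENSGALG00000018382.1, and they were abundant in the other tissues too. The highest of them, ENSGALG00000018373.1, had means of 31903 CPM in the lower sheath, 22386 in the collar, 15684 in the upper sheath and 10777 in the pulp. Why the 9 varied together was not tested. The remaining gene ran the other way among the birds: it stood at 17107 CPM in male 1, 72913 in female 1, 4076 in male 2 and 5398 in female 2, against 477, 684, 452 and 636 CPM in the dermal papilla. Both patterns separated the tissues without overlap, yet the papilla ectoderm libraries differed by a large factor among themselves. Leaving the most abundant genes of both tissues out of the scaling gave 2768 calls, close to the count with them.

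The papilla ectoderm was also the more variable tissue over all genes. The SD of log2 CPM over the 4 libraries had a median of 0.48 in papilla ectoderm and 0.25 in dermal papilla, and it was larger in papilla ectoderm for 80.8% of the genes tested. Spearman correlations over genes ran from 0.842 to 0.953 among the papilla ectoderm libraries and from 0.952 to 0.981 among the dermal papilla libraries. Papilla ectoderm and dermal papilla of the same bird correlated at 0.741 to 0.924, and of different birds at 0.710 to 0.890. Every one of the 8 libraries was closest to a library of its own tissue among the 24.

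Genes that distinguish epithelium from mesenchyme in the growing feather were taken from the other libraries of the same birds and then followed in the papilla. The collar epithelium was compared with the pulp in the same way, in the same birds. Of 12969 genes tested, 17.4% were at least 2-fold higher in the collar and 26.5% at least 2-fold higher in the pulp, with an edgeR adjusted p below 0.05. Among the genes also tested in the papilla, 2015 were collar-higher, 3308 were pulp-higher and 7154 were in neither class.

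Collar-higher genes leaned towards the papilla ectoderm and pulp-higher genes towards the dermal papilla, with exceptions on both sides. Of the 2015 collar-higher genes, 446 were called higher in papilla ectoderm (22.1%) and 131 higher in dermal papilla (6.50%). Of the 3308 pulp-higher genes, 95 were called higher in papilla ectoderm (2.87%) and 696 higher in dermal papilla (21.0%). Over all genes tested the shares were 10.5% and 11.5%. The median log2 difference, papilla ectoderm minus dermal papilla, was 0.49 for collar-higher genes, -0.72 for pulp-higher genes and 0.06 for the genes in neither class. Genes in neither class made up 773 of the 1334 genes higher in papilla ectoderm and 585 of the 1472 higher in dermal papilla.

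The size of this lean differed between birds. The median within-bird log2 difference of collar-higher genes was 0.89 in male 1, 0.04 in female 1, 0.53 in male 2 and 0.48 in female 2. That of pulp-higher genes was -1.90 in male 1, -0.31 in female 1, -0.46 in male 2 and -0.49 in female 2. Male 1 thus stood apart for the pulp-higher genes and female 1 was near 0 for the collar-higher genes. Without male 1 the 2 medians were 0.36 and -0.39, with the classes drawn again at 2089 collar-higher and 3506 pulp-higher genes. Pulp-higher genes then made up 239 of 1364 genes called higher in papilla ectoderm, in place of 95 of 1334. Without the pairs of male 1 and female 1, 1803 genes were called higher in papilla ectoderm, of which 656 were collar-higher and 231 pulp-higher. Of the 1988 then called higher in dermal papilla, 184 were collar-higher and 981 pulp-higher.

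**Figure D3:**
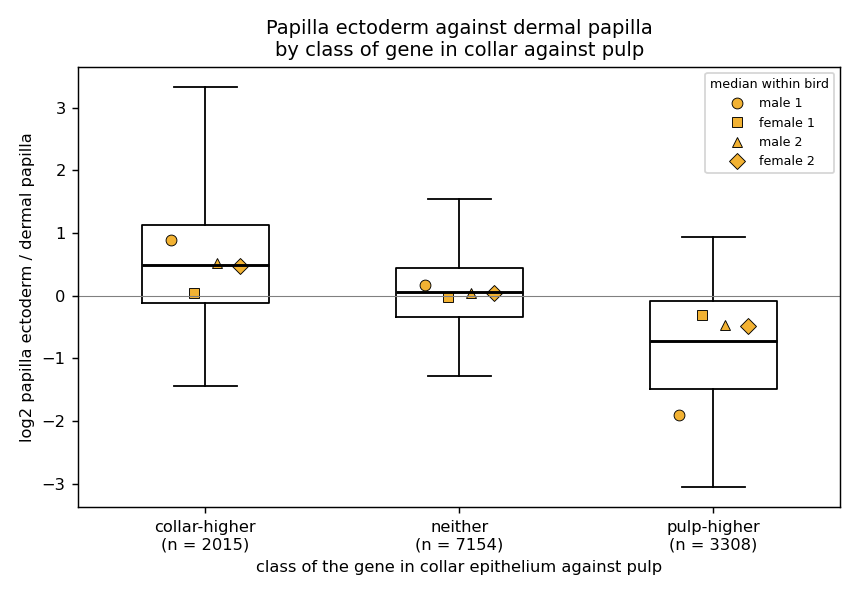
Boxes show the log2 ratio of papilla ectoderm to dermal papilla for genes that were higher in collar, in neither class or higher in pulp, with the median as a line, the quartiles as the box and the 5th and 95th percentiles as whiskers. Yellow symbols are the medians within each bird, all above 0 for collar-higher and all below 0 for pulp-higher genes, with male 1 farthest from 0 in both.

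The same classes divided the large differences. Of the 177 genes at least 8-fold higher in papilla ectoderm, 108 were collar-higher and 7 pulp-higher. Of the 252 at least 8-fold higher in dermal papilla, 17 were collar-higher and 148 pulp-higher. Of the 12751 genes tested, 2015 were collar-higher and 3308 pulp-higher. Collar against pulp was not tested for 15 of the 177 and 45 of the 252. These genes were picked for their size in the papilla, so the counts describe them and were not tested.

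The levels of the same gene classes in each library show where the papilla stood between collar and pulp. The 548 genes at least 8-fold higher in collar summed to 36848 CPM in the papilla ectoderm of male 1, 12332 in female 1, 14160 in male 2 and 16757 in female 2. They summed to 3780, 16834, 4533 and 2845 CPM in the dermal papilla, so that female 1 stood above 3 of the papilla ectoderm libraries. In the collar itself they summed to 123481 to 170808 CPM. The 1591 genes at least 8-fold higher in pulp summed to 23456 CPM in the papilla ectoderm of male 1, 106004 in female 1, 99129 in male 2 and 92050 in female 2. The dermal papilla of these birds summed to 214350, 175629, 200633 and 219555 CPM, overlapping the 192369 to 215670 CPM of the pulp and above the papilla ectoderm in every bird. All 4 papilla ectoderm libraries lay between the collar libraries, with 5846 to 11659 CPM, and the pulp libraries.

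Genes restricted to collar or to pulp were followed in the same way. The 79 genes above 50 CPM in every pulp library and over 20 times every collar library stood, in the median, at 4.50% of their pulp level in the papilla ectoderm of male 1, 40.7% in female 1, 30.8% in male 2 and 34.8% in female 2. The corresponding values of the dermal papilla were 73.0%, 64.9%, 67.9% and 70.4%. The 85 genes restricted to the collar in the same way stood at 2.07%, 3.45%, 2.37% and 1.09% of their collar level in papilla ectoderm and at 0.159%, 8.46%, 0.835% and 0.139% in dermal papilla. The pulp libraries stood at 0.602% to 1.23% by this measure, a range that includes the papilla ectoderm of female 2 and the dermal papilla of male 2. The dermal papilla of female 1 therefore held more of the collar-restricted genes than its papilla ectoderm did. The lower sheath of the same bird was high in collar genes too. There the genes at least 8-fold higher in collar summed to 27654 CPM, against 4485 to 5216 CPM in the lower sheath of the other birds. The part that mixed tissue plays in the differences above was not tested.

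**Figure D4:**
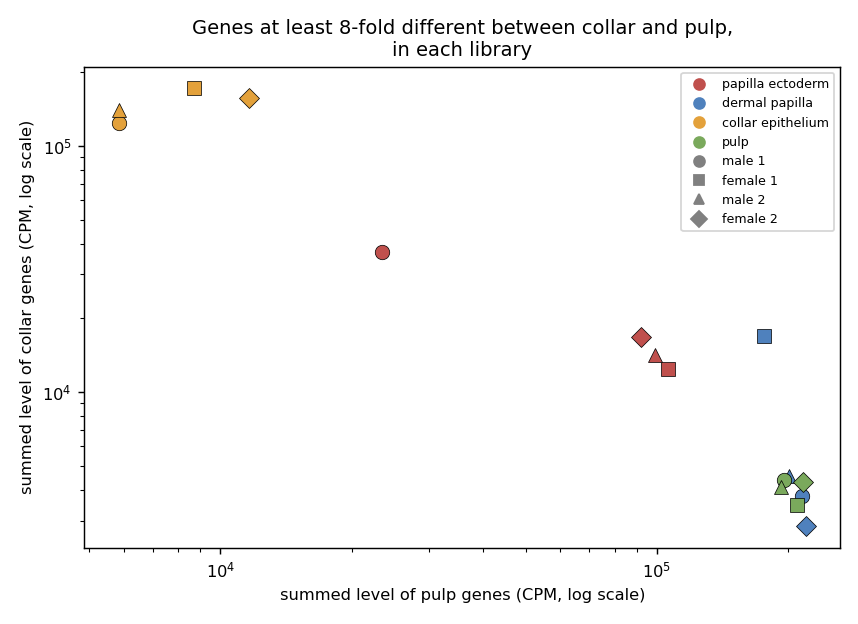
Each point is 1 library, with the summed CPM of the genes at least 8-fold higher in pulp on the x axis and of those at least 8-fold higher in collar on the y axis, both on log scales. The dermal papilla lies with the pulp apart from female 1 at 16834 CPM of collar genes, and by these sums the papilla ectoderm lies between collar and pulp, with male 1 nearest to the collar.

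Some genes went against the division seen in the growing feather: 95 pulp-higher genes were called higher in papilla ectoderm, 7 of them at least 8-fold, and 131 collar-higher genes were called higher in dermal papilla, 17 of them at least 8-fold. The first 2 of each kind by fold are given, under the same conditions as above.

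ENSGALG00000011532.4, a pulp-higher gene (11.7 ± 2.61 CPM in pulp, 2.12 ± 1.27 in collar; SD, n = 4 each), was higher in papilla ectoderm. It had 49.3 CPM in male 1, 12.4 in female 1, 18.7 in male 2 and 29.1 in female 2, against 2.404, 3.07, 1.65 and 1.92 CPM in the dermal papilla. The tissues did not overlap, and the log2 difference was 3.46 ± 0.44 (SE, 4 birds, edgeR adjusted p = 0.0120). The papilla ectoderm held the highest mean of the 6 tissues for this gene, at 27.4 ± 16.2 CPM (SD, n = 4), although its female 1 library lay within the range of the pulp.

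ENSGALG00000001768.4, likewise pulp-higher (42.2 ± 31.8 CPM in pulp, 5.98 ± 2.81 in collar; SD, n = 4 each), had 109 CPM in the papilla ectoderm of male 1, 14.2 in female 1, 67.8 in male 2 and 75.3 in female 2. Its dermal papilla levels were 10.9, 2.68, 8.32 and 2.07 CPM. Female 1 was low in papilla ectoderm but still above every dermal papilla library. The pulp of these birds had 75.2, 14.9, 63.6 and 15.1 CPM in the same order, a range that the papilla ectoderm overlapped. In the pulp, the dermal papilla, the collar and the upper sheath both males were above both females. In the papilla ectoderm and the lower sheath they were not. The log2 difference was 3.45 ± 0.50 (SE, 4 birds, edgeR adjusted p = 0.0144).

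ENSGALG00000007226.4, a collar-higher gene at low levels (1.84 ± 1.09 CPM in collar, 0.160 ± 0.105 in pulp; SD, n = 4 each), was far higher in dermal papilla. It had 6.91 CPM in the papilla ectoderm of male 1, 2.70 in female 1, 7.18 in male 2 and 4.61 in female 2, against 503, 246, 237 and 435 CPM in the dermal papilla. No library came near the range of the other tissue, and the log2 difference was -6.07 ± 0.36 (SE, 4 birds, edgeR adjusted p = 0.00927). The gene was also found in the lower sheath, at 125 ± 93.7 CPM with wide spread between birds, and little in the upper sheath, at 3.93 ± 3.87 CPM (SD, n = 4 each).

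ENSGALG00000027232.1, collar-higher as well (12.6 ± 1.77 CPM in collar, 2.37 ± 0.95 in pulp; SD, n = 4 each), had 0.288 CPM in the papilla ectoderm of male 1, 6.04 in female 1, 9.44 in male 2 and 0.728 in female 2. Against these stood 129, 52.5, 178 and 109 CPM in the dermal papilla. The papilla ectoderm libraries fell into a low pair (male 1 and female 2) and a higher pair, all below the dermal papilla. The log2 difference was -5.44 ± 1.07 (SE, 4 birds, edgeR adjusted p = 0.0263). Its size rested on single birds: it was -4.57 without male 1, -6.39 without female 1, -6.18 without male 2 and -4.85 without female 2. The sheaths held 40.9 ± 7.59 CPM (lower) and 21.2 ± 4.21 (upper; SD, n = 4 each).

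Whether the difference of epithelium minus mesenchyme itself changed between the follicle base and the growing feather was tested in 1 model over the 16 libraries of papilla ectoderm, dermal papilla, collar and pulp. Of 13448 genes, 5771 passed edgeR's test (42.9%), with 3176 in which the papilla difference was the more positive (23.6%) and 2595 in which it was the more negative (19.3%). This model had 9 residual degrees of freedom, against 3 for papilla ectoderm against dermal papilla alone. The numbers of calls of these tests are therefore not on one footing. For the 4 genes that went against the collar and pulp division, the log2 differences between the base and the growing feather were 6.05 ± 0.51 for ENSGALG00000011532.4, 6.16 ± 0.58 for ENSGALG00000001768.4, -9.44 ± 0.78 for ENSGALG00000007226.4 and -7.69 ± 1.01 for ENSGALG00000027232.1 (SE). ENSGALG00000026297.1, highest in the papilla ectoderm, stood at 8.87 ± 1.04. All 5 were chosen for their differences in these libraries, and all 95 and all 131 genes that went against the division passed, an outcome that the choice itself favours, so these values are a description. Of the genes higher in papilla ectoderm but in neither collar nor pulp class, 457 of 773 passed this test, and of those higher in dermal papilla, 379 of 585. Fewer passed among genes with the same direction in both pairs. These were 110 of 446 genes higher in papilla ectoderm and collar, and 247 of 696 higher in dermal papilla and pulp. These sets too were selected on papilla libraries that the test uses, and they were sorted on its collar and pulp libraries. A shared direction in both pairs makes the tested difference smaller. The sorting itself thus favours fewer passing genes there, so these counts are a description.

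The other tissues placed the 2 sets of genes in different parts of the follicle. Among the 4 tissues outside the comparison, the collar held the highest mean for 798 of the 1334 genes higher in papilla ectoderm (59.8%) and for 37.0% of all genes tested. The lower follicle sheath held it for 53 of the 1334 (3.97%). Among the 1472 genes higher in dermal papilla, the lower sheath held the highest mean for 843 (57.3%), against 20.8% of all genes tested, and the collar for 175 (11.9%). The pulp held it for 22.7% of the papilla ectoderm genes and 17.6% of the dermal papilla genes, below its 24.8% over all genes tested.

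Levels in these tissues were set against those of the papilla. Genes higher in papilla ectoderm stood in the collar at a median log2 ratio of -0.31 to their papilla ectoderm level, in the pulp at -0.79, in the upper sheath at -1.05 and in the lower sheath at -1.35. Genes higher in dermal papilla stood in the lower sheath at -0.21 to their dermal papilla level, in the upper sheath at -0.60, in the pulp at -0.89 and in the collar at -2.02. In the median, the genes of the papilla ectoderm were thus nearest to their own level in the collar and those of the dermal papilla in the lower sheath. Each set was selected as high in the tissue its ratios refer to, which lowers all of them. The medians over all genes tested were not computed, so these values are a description. The lower sheath means include the library of female 1, with its higher sum of collar genes. The part of that library in the median ratios was not tested. The shares depended on the birds: without male 1 the collar led for 49.9% of the papilla ectoderm genes and the lower sheath for 53.8% of the dermal papilla genes, and without female 1 for 62.7% and 65.3%.

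**Figure D5:**
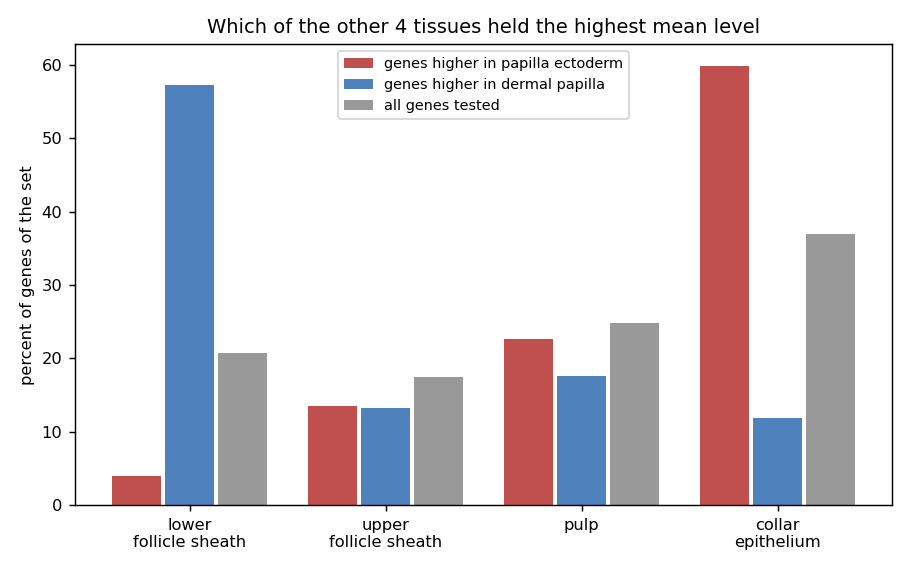
Bars show, for each of the 4 tissues outside the comparison, the percent of genes for which that tissue had the highest mean, among genes higher in papilla ectoderm (red), genes higher in dermal papilla (blue) and all genes tested (grey). The red bar is highest at the collar (59.8%) and the blue bar at the lower sheath (57.3%), both above the grey bars there.

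The difference between the tissues was compared between the sexes within the same 8 libraries. Of 12751 genes, 0 had a tissue difference that differed between males and females by edgeR's quasi-likelihood test (0% called, smallest adjusted p 0.980), and DESeq2 called 0 as well. At an unadjusted p under 0.05 there were 216 genes, fewer than the 638 that chance gives. This count depended on the fit: it was 453 with DESeq2 and 1038 of 13763 genes with all 24 libraries in edgeR. It also depended on the birds, rising or falling with the bird left out, though each such fit leaves a sex without a replicate. With 2 birds per sex these counts do not show that the sexes were alike. On simulated counts with 200 changed genes and no difference between birds, this test recovered 0 of 66 genes changed by a log2 difference of 2. It recovered 32 of 66 changed by 4. Within males alone and within females alone, 0 genes passed edgeR's test, with 2739 and 3235 genes at an unadjusted p under 0.05. The 8 named genes kept their direction in both sexes.

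Genes limited to females served as a check on the labelled sex of the libraries. They cannot tell birds of the same sex apart. The 31 genes whose level in every female library of the other 16 was over 5 times every male one summed to 1044 and 1258 CPM in the papilla ectoderm of females 1 and 2, and to 2.16 and 8.74 CPM in that of males 1 and 2. In the dermal papilla they summed to 927 and 987 CPM in the females and to 0.489 and 0.477 CPM in the males. The labelled sex was thus met in all 8 libraries, and the papilla ectoderm of male 2 (201 counts) was the highest male library. Its part in the comparison was not tested beyond leaving that bird out.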

How the data were processed

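Libraries were made from polyadenylated RNA (TRIzol, Illumina TruSeq), per the labels' protocols. The deposited files hold raw counts per gene, per the file headers; STAR 2.4.1d, HTSeq 0.6.0, edgeR and the build galGal4 are named in the submitters' processing notes. No source used here gives the strand setting or the annotation release, so counts of overlapping, antisense or near-identical genes are uncertain.

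The members, gene lists and tests were chosen with earlier results of these data known. Counts were tested in R 4.3.3 with edgeR 4.0.16 (TMM, filterByExpr with a minimum count of 10, glmQLFit, glmQLFTest), tissue plus bird as a block, 8 libraries, 3 residual degrees of freedom, adjusted by Benjamini-Hochberg at 0.05. The filter left out 4357 of 17108 genes with 0.0419% of the counts. The test was checked on simulated counts. In each simulation 200 genes were changed, and no difference between birds was put into the mean levels. Far more genes were called in the data (2806), and the adjusted p depends on how many genes change. The recovered shares therefore hold for the simulated setting and do not give the power of the tests on the data. The papilla comparison recovered 3 of 68 genes changed by a log2 difference of 1 and 46 of 66 changed by 2. At 4 it recovered 62 of 66, with 5 false calls in all. At the same sizes the sex comparison recovered 0 of 68, 0 of 66 and 32 of 66. The test between follicle base and growing feather recovered 2 of 68, 36 of 66 and 55 of 66. Standard errors come from the F statistic. CPM used TMM factors over the 24 libraries; log2 CPM used a prior count of 2, and ratios to other tissues a pseudocount of 0.1 CPM. One count was worth 0.0318 to 0.0799 CPM. Same-numbered libraries come from the same bird, and their deviations from the tissue means correlated at 0.148 to 0.481, against -0.351 to 0.276 for different birds. Replicates differed by more than sampling noise (median chi-square per gene 6.65 to 37.1). P-values of the papilla comparison measure the spread of the within-bird difference over 4 birds, with 2.51 prior degrees of freedom borrowed over genes. The test between follicle base and growing feather has 9 residual degrees of freedom. It pools the tissues of each bird, so its p-values do not measure the spread between birds alone.

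Genes named had to be called, without overlap between the tissues and with a mean of 10 CPM or more where higher, largest fold first, at most 2 per direction; for genes that go against their collar or pulp class, 2 per class. The planned lists of symbols could not be used. The reference table (25635 rows) pairs 0 of its rows with an Ensembl identifier. Alternatives were RLE and upper-quartile scaling, no filter, DESeq2 1.42.0, limma 3.58.1 voom, all 24 libraries, no block, one sex, and birds left out. The test between follicle base and growing feather and the shares by highest tissue were added after the data were seen.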

Additional observations from a re-analysis of the deposited data

Results flagged for a closer look

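In 30 groups of 4 libraries looked at, 4 held a library far from the others, and chance gives about 1 in 20. The 4 are not separate findings: 2 of them measure collar genes in the same library, and 1 is a gene with counts in 1 library and none in the other 3, which this comparison always marks. The summed level of the genes higher in pulp was 23456 CPM in the papilla ectoderm of male 1, against 92050 to 106004 CPM in the other 3. The summed level of the genes higher in collar was 16834 CPM in the dermal papilla of female 1, against 2845 to 4533 CPM in the other 3. Genes restricted to the collar reached a median of 8.46% of collar levels there, against 0.139% to 0.835% in the others. ENSGALG00000006575.3 had 0.159 CPM in the papilla ectoderm of female 1 and 0 in the other 3, a difference of 2 counts.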

How the results depend on the processing

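The 2806 calls became 2792 with RLE scaling, 2913 with upper-quartile scaling (1618 higher in papilla ectoderm and 1295 higher in dermal papilla), 2596 with no filter, 3359 with limma voom, 2768 with scaling without the most abundant genes and 3791 without the pairs of male 1 and female 1. Without the bird as a block there were 3401 calls, 2569 of them among the 2806 in the same direction, and the 8 named genes kept their calls. The count moved to 4754 with DESeq2, to 5664 with all 24 libraries, and to 0 in males alone and 0 in females alone. Leaving out 1 bird gave 0 to 3150 calls. The cause was not tested. No value of the 8 named genes was reversed in 120 recomputations; 88 kept direction and call, and 32 kept the direction but lost the call (without male 2, without female 2 or in 1 sex, adjusted p 0.0582 to 0.132). The choice of the 8 genes for no overlap between the tissues favours the kept direction. The sex comparison gave 0 calls under every alternative run. The median of collar-higher genes was 1.52 with classes at 8-fold and 0.36 to 0.65 with 1 bird left out; that of pulp-higher genes was -1.004 and -0.90 to -0.39. The test between follicle base and growing feather gave 5439 to 6350 calls with other scaling, filter, tool or no block, and 3310 to 6166 with 1 bird left out. The collar's share among papilla ectoderm genes was 49.9% to 62.7% with male 1 or female 1 left out and 56.7% without both pairs, and the lower sheath's share among dermal papilla genes 53.8% to 65.3% and 54.0%; with male 2 or female 2 left out no genes were called, so no share was given. Depth limits genes near the floor of 3 counts.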
